A study of Mus musculus with 25 samples.

Results

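The genes described here encode the nuclear subunits of mitochondrial complex I (NADH:ubiquinone oxidoreductase) and the Ndufaf proteins that help to build it. They were taken as every gene whose annotated symbol begins with Ndufa, Ndufb, Ndufc, Ndufs, Ndufv or Ndufaf, with 1 symbol per probe set and the probe set of highest mean per gene (88 probe sets stood for these genes, and 22 genes had several). The rule gave 44 of 18193 genes, of which 36 are subunits by name and 8 are assembly factors. The expression of 43 of them, 35 subunits and 8 assembly factors, passed a filter on low values that left 12062 genes for testing.

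The measurements were made on whole lung of female mice that were wild-type (WT) or lacked FP, the prostaglandin F receptor encoded by Ptgfr (FP-KO). There were 4 WT mice on Day 0, 4 on Day 7 and 5 on Day 14, and 4 FP-KO mice at each of these times. Every group carries the same treatment label, intratracheal bleomycin at 1 mg/kg on Day 0, a standard way to injure and scar the lung, and the Day 0 samples are described as baseline. Each of the 25 Affymetrix arrays holds the RNA of 1 numbered mouse. The labels give no strain, no age, no account of how or in which cells the receptor was removed, and no word on what the Day 0 mice had received when sampled. The study asked how the time course of FP-KO lungs compares with that of WT lungs.

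Complex I is the entry point of the mitochondrial respiratory chain: it takes electrons from NADH, passes them to ubiquinone and pumps protons across the inner membrane. It is shaped like an L. The matrix arm carries the flavin and the iron-sulfur clusters in nuclear core subunits such as Ndufv1, Ndufv2, Ndufs1, Ndufs3, Ndufs7 and Ndufs8. The membrane arm has a core encoded by mitochondrial DNA, surrounded by nuclear accessory subunits, most of them named Ndufa, Ndufb or Ndufc. Assembly factors such as Ndufaf1 to Ndufaf8 act while the arms are built and are not part of the finished enzyme. In lung, alveolar type 2 cells and ciliated cells are rich in mitochondria, while heart muscle, some of which lies around the pulmonary veins of mice, has more still. Whole-lung RNA cannot tell fewer cells of a type from less of an RNA per cell.

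The 6 core subunits just named were measured. Ndufa11 and Ndufs6 were represented only by probe sets with several symbols and were not analysed here. The other measured subunits comprised 8 accessory subunits of the matrix arm, 19 of the membrane arm, the acyl carrier protein Ndufab1, and the pair Ndufa4 and Ndufa4l2. Ndufa4 keeps its complex I name but is now counted as a subunit of cytochrome c oxidase (complex IV), and Ndufa4l2 is its hypoxia-inducible relative. The gene that failed the filter was Ndufb4, whose only probe set with 1 symbol gave intensities between 5.3 and 59.5 and lay above the array median on 0 arrays. Mean intensity in WT lungs on Day 0 ran from 37.4 to 10557 among the 36 subunit probe sets and from 220 to 1818 among the 8 assembly factor probe sets. Probe sets differ in brightness for the same amount of RNA, so these ranges say how bright the spots were and not which RNA was more abundant.

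Promoters are shown for the 4 members called in the same direction in both genotypes within one comparison of days: Ndufb1 and Ndufs4, called higher on Day 7 in both genotypes, and Ndufb6 and Ndufaf4, called lower on Day 14 than on Day 7 in both. Each runs 5′ to 3′ on the strand of its gene over 300 bases around the start site, from RefSeq on GRCm38.p6. Capitals mark matches, on either strand, to 4 short motifs linked to nuclear genes of mitochondria: the NRF-1 core GCATGCGC, the ETS core CCGGAAG bound by GABPA, the estrogen-related receptor core AAGGTCA and the YY1 core AAGATGGC. The positions are chr12:101975689-101975988 (minus strand) for Ndufb1, chr13:114388045-114388344 (minus) for Ndufs4, chr4:40279372-40279671 (minus) for Ndufb6 and chr4:24897833-24898132 (plus) for Ndufaf4.
Ndufb1: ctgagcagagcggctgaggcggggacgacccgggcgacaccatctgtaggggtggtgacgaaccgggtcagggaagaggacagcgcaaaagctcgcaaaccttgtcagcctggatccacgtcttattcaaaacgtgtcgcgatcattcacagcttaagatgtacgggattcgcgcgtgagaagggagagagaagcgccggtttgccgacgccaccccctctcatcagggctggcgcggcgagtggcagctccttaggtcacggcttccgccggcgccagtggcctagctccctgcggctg
Ndufs4: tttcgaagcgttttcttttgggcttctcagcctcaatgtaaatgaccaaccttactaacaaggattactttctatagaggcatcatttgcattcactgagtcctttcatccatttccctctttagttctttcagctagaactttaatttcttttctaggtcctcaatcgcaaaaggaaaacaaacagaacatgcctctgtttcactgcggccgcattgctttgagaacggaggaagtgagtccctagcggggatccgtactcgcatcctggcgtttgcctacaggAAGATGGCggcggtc
Ndufb6: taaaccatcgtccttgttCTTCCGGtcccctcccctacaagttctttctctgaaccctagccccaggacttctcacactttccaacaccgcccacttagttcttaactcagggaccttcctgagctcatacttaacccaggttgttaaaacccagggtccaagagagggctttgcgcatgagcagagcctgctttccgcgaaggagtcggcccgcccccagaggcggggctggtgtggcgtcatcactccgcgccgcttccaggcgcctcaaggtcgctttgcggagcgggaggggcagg
Ndufaf4: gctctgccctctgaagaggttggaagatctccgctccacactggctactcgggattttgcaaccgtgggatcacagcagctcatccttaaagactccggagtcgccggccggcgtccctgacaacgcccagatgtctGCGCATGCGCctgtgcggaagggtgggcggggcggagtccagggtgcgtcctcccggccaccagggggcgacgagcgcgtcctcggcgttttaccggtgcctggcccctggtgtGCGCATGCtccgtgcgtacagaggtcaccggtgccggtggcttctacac
The Ndufaf4 promoter held 3 matches to the NRF-1 core, 2 of which overlap on opposite strands in the first run of capitals. The Ndufb6 promoter held 1 ETS core and the Ndufs4 promoter 1 YY1 core, and no match to these letters lay in the Ndufb1 window. Promoters were found for 39 of the 44 genes, 41 promoters in all. The NRF-1 core was in 9.76% of these 41 against 2.71% of all 32851 promoters of the same length, and the YY1 core was in 17.1% against 2.75%. The ETS core was in 14.6% against 8.86% and the estrogen-related receptor core in 7.32% against 4.72%. By class, the NRF-1 core was found in 2 of 32 subunit genes and 2 of 7 assembly factor genes, and the YY1 core in 6 of 32 and 1 of 7. These matches describe letters only.

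Ptgfr itself separated the genotypes on every array, as the labels have it, at 122.6 to 383.7 in WT lungs and 21.1 to 57.6 in FP-KO lungs. Lung epithelial markers were bright throughout (the summed intensity of 8 alveolar type 2 genes was between 106940 and 176970). On the second principal component of the 12062 genes the Day 14 arrays formed 2 sets: WT No. 1 to 3 with FP-KO No. 1 and 2 lay between -30.05 and -27.7, while WT No. 4 and 5 with FP-KO No. 3 and 4 lay between -1.35 and 2.28. The labels do not say what separates these sets, and each holds mice of both genotypes. They are called the first and second Day 14 set here, and the counts of genes called in comparisons that use Day 14 are given with each of them alone. FP-KO No. 2 on Day 14 lay among the Day 0 arrays on the first component, at -28.9.

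Averaged over genes, the complex I signal moved little. Relative to the mean of WT Day 0, the mean log2 level of the 35 subunits lay between -0.05 and 0.03 in the WT lungs on Day 0 and between 0.04 and 0.09 on Day 7. On Day 14 the WT lungs split: No. 1, 2 and 3 lay at -0.13, -0.16 and -0.17, and No. 4 and 5 at 0.03 and 0.04. In FP-KO lungs the subunits lay between -0.14 and 0.02 on Day 0 and between -0.02 and 0.19 on Day 7. On Day 14, FP-KO No. 1 and 2 lay at -0.24 and -0.28, below every other lung, and No. 3 and 4 at 0.00 and 0.01. The 8 assembly factors showed the same split with a wider spread: on Day 14 they lay between -0.30 and -0.23 in WT No. 1 to 3, at -0.38 and -0.40 in FP-KO No. 1 and 2, and between -0.02 and 0.04 in the other Day 14 mice.

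**Figure D1:**
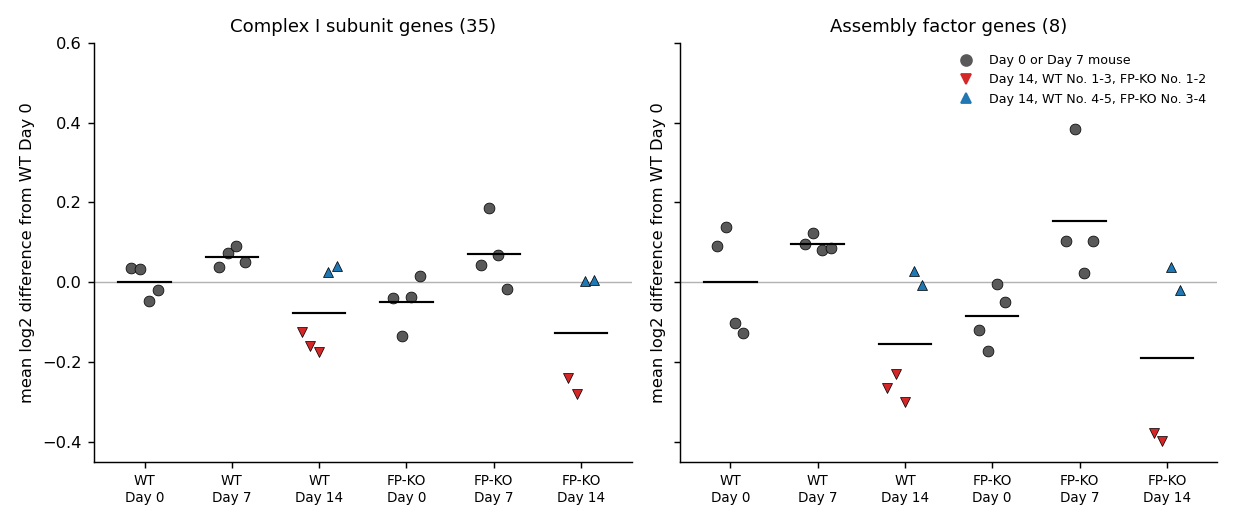
Mean log2 difference from the WT Day 0 mean for each mouse, over the 35 tested subunit genes (left) and the 8 assembly factor genes (right); each point is 1 array, bars are group means, and the Day 14 arrays are drawn by set. The Day 14 mice of the first set (red) lie below 0 in both genotypes and both gene classes, while those of the second set (blue) lie between -0.02 and 0.04.

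On Day 7 after bleomycin, WT lungs had more Ndufb1 and Ndufs4 signal and less Ndufa6 signal than on Day 0, and the other 40 members did not pass the test. Ndufb1, a small accessory subunit of the membrane arm, read 182.1, 178.2, 152.3 and 196.6 in the WT mice of Day 0 and 366.9, 415.3, 294.3 and 383.0 in those of Day 7. No Day 7 value came near the Day 0 range, and the log2 difference was 1.06 ± 0.18 (SE; limma adjusted p = 8.72e-05). Ndufs4, an accessory subunit of the matrix arm whose loss causes Leigh-like disease, read between 1391.2 and 1663.7 on Day 0 and between 1897.3 and 1975.3 on Day 7. It rose by 0.34 ± 0.09 on the log2 scale (adjusted p = 0.00577). Ndufa6, an accessory LYR-motif subunit that holds the acyl carrier protein, read between 3252.7 and 3543.5 on Day 0 and between 2697.4 and 2874.5 on Day 7, again without overlap. It fell by 0.30 ± 0.10 (adjusted p = 0.0242). Of all tested genes 17.1% rose and 18.0% fell in this comparison, so 2 rises and 1 fall among 43 members were far fewer calls than the share over all genes. The median difference was 0.07 for the subunits and 0.11 for the assembly factors, against -0.01 over all tested genes.

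The direction for Ndufs4 depended on the probe set. Another bright probe set of this gene gave a difference of -0.47 between WT Day 7 and Day 0 and -0.19 in FP-KO lungs, while one more gave 0.31 and 0.35. Ndufb1 had 1 probe set and Ndufa6 had 1, so no such comparison could be made for them. Markers of other cells moved as well: all 11 macrophage genes rose in WT lungs by Day 7, their summed intensity passing from 12647 to 15637 on Day 0 to 34459 to 45318 on Day 7. All 9 proliferation genes rose, and 12 of 14 cardiac muscle genes fell, from a summed intensity of 28370 to 35718 to one of 14243 to 21664. The sum of 9 ciliated genes was 13805 to 15754 on Day 0 and 7994.6 to 10417 on Day 7. For 10 endothelial genes it was 41642 to 45166 and 30392 to 34066. For 8 alveolar type 2 genes the days overlapped, at 125840 to 152920 and 106940 to 132920. Their part in the complex I values was not tested.

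In FP-KO lungs, 7 members rose between Day 0 and Day 7 and 0 of the 43 fell past the threshold (an adjusted p under 0.05), against 12.6% of all genes that rose and 10.7% that fell. With arrays brought to a common median in place of quantile normalization these shares over all genes became 12.1% and 4.97%. Ndufb1 read 261.8, 248.1, 237.5 and 239.4 on Day 0 and 442.5, 390.2, 368.3 and 260.5 on Day 7. The last Day 7 mouse fell within the Day 0 range, and the rise was 0.62 ± 0.18 (limma adjusted p = 0.0159). Ndufaf5, which hydroxylates an arginine of the core subunit Ndufs7 during assembly, read 210.9, 213.9, 286.8 and 208.2 on Day 0 and 293.8, 290.8, 314.8 and 318.3 on Day 7. The ranges did not overlap, although the highest Day 0 mouse lay just under the lowest Day 7 mouse, and the log2 rise was 0.51 ± 0.15 (adjusted p = 0.0162). Ndufa8, a membrane arm subunit of the intermembrane space, rose by 0.39, Ndufb6 by 0.37, Ndufs4 by 0.30, the core subunit Ndufs3 by 0.24 and Ndufa9, which sits near the ubiquinone site, by 0.20. The adjusted p-values of these 5 genes lay between 0.0155 and 0.0418. The median was 0.15 for subunits and 0.18 for assembly factors, against 0.00 over all tested genes.

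The count of these FP-KO rises depended on single mice. Without FP-KO No. 1 of Day 7 only 1 member rose, and without No. 2 of Day 7 only 1 rose and 1 fell, while without No. 4 of Day 7 the count was 11. FP-KO No. 2 on Day 7 had the highest subunit level of all 25 lungs at 0.19 and the lowest array median intensity, 112.3. Leaving out No. 1, No. 2 or No. 3 of Day 0, or No. 3 of Day 7, left 4 members that rose. The shares over all genes in these fits are not given, so the counts do not show a dependence particular to complex I genes. Among the markers, 9 of 11 macrophage genes and all 9 proliferation genes rose in FP-KO lungs by Day 7, and 0 of 14 cardiac muscle genes passed the test. The summed intensity of 9 ciliated genes was 13328 to 15428 on Day 0 and 8738.9 to 12546 on Day 7. That of 8 alveolar type 2 genes overlapped, at 143640 to 150880 and 125440 to 151000. Their part was not tested here either.

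**Figure D2:**
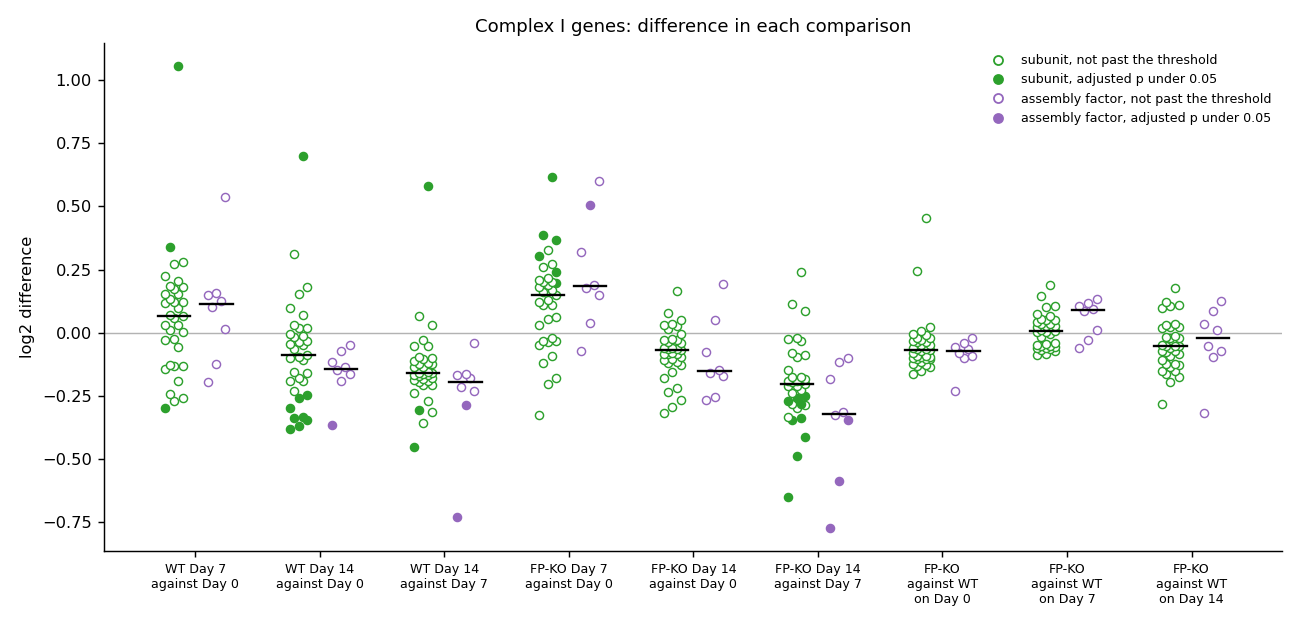
Log2 difference of each tested complex I gene in 9 comparisons; each circle is 1 gene, green for the 35 subunits and purple for the 8 assembly factors, filled where the limma adjusted p was under 0.05, and bars are medians. The largest rise is Ndufb1 in WT lungs on Day 7 (1.06), the lowest values lie in the Day 14 against Day 7 comparisons, and no circle is filled in the comparisons of the genotypes.

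By Day 14, WT lungs had less signal than on Day 0 for 9 members and more for Ndufb1. Of all genes 19.5% fell and 19.1% rose in this comparison, so 9 of 43 lies close to the share over all genes. Ndufb1 read 268.6, 253.0, 277.7, 305.5 and 342.5 on Day 14, each above the highest Day 0 mouse (196.6), a rise of 0.70 ± 0.17 (limma adjusted p = 0.00244). The largest fall was that of Ndufb11, an X-linked membrane arm subunit, which read 9628.7, 10078.7, 8186.4 and 9359.4 on Day 0 and 6584.6, 6240.6, 6614.1, 7816.5 and 8565.9 on Day 14. In deposited intensity the last Day 14 mouse lay above the lowest Day 0 mouse, whereas the normalized log2 values did not overlap, and the fall was 0.38 ± 0.10 (adjusted p = 0.00426). Ndufb10 fell by 0.37 ± 0.10 (adjusted p = 0.00593), from between 2952.0 and 3206.1 to between 2186.2 and 2756.1 without overlap. The core subunit Ndufs7, which carries the last iron-sulfur cluster before ubiquinone, fell by 0.30 ± 0.09 (adjusted p = 0.0125), from between 3095.3 and 3855.5 to between 2487.9 and 2903.2.

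The other falls in WT lungs were Ndufa5 (-0.34), Ndufb3 (-0.34), Ndufc2 (-0.33), Ndufa7 (-0.26), Ndufa12 (-0.25) and the assembly factor Ndufaf8 (-0.36), with adjusted p-values between 0.0174 and 0.0323. The Day 14 and Day 0 values of each of these 6 genes overlapped. Ndufaf8, which works with Ndufaf5, read 1577.9 to 1953.8 on Day 0. On Day 14 it read 1247.0, 1290.8 and 1223.2 in WT No. 1 to 3 but 1715.9 and 1683.4 in No. 4 and 5. With the first Day 14 set alone 16 members were lower and 1 was higher than on Day 0, whereas with the second set alone 0 were lower and 2 were higher. Of all genes 22.6% were lower and 21.9% higher with the first set, and 9.73% and 10.9% with the second. Ndufb1 was called with each set (0.57 and 0.90), while Ndufb11 was at -0.50 with the first set and at -0.21, not called, with the second. Leaving out WT No. 1 of Day 0, or No. 2 or No. 3 of Day 14, left 3 members that fell. The shares over all genes without these mice are not given. All 14 cardiac muscle genes fell by Day 14 (summed intensity 11587 to 14489), and 10 of 11 macrophage genes and all 9 proliferation genes rose. With either Day 14 set alone all 14 cardiac muscle genes fell, and 9 macrophage and 9 proliferation genes rose. The summed intensity of 9 ciliated genes was 7931.8 to 9610.2 on Day 14, against 13805 to 15754 on Day 0. That of 8 alveolar type 2 genes overlapped, at 119940 to 135850 against 125840 to 152920. Their part in these values was not tested.

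In FP-KO lungs no member passed the test between Day 0 and Day 14 with limma and all arrays, where 1.85% of all genes rose and 1.41% fell (0.937% and 0.439% with arrays brought to a common median). With the first Day 14 set alone 12 members were lower, and with the second set alone 0 members were called in either direction. Of all genes 7.26% were lower and 7.20% higher with the first set, and 0.738% and 1.48% with the second. The smallest adjusted p with all arrays was that of Ndufb11, 0.12, at a difference of -0.29 ± 0.10. Ndufb11 read 10125.8, 8658.9, 9146.5 and 10173.1 on Day 0 and 6550.5, 6478.4, 9922.3 and 8917.0 on Day 14. The first 2 mice of Day 14 were thus the lowest of the group by a wide margin, and the others lay within the Day 0 range. Ndufa5 (-0.32, adjusted p = 0.165) and Ndufs7 (-0.24, adjusted p = 0.174) came next.

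From Day 7 to Day 14 the complex I signal dropped in both genotypes, by amounts that were small per gene. In FP-KO lungs 12 members fell and none of the 43 rose past the threshold, against 12.0% of all genes that fell and 10.7% that rose. In WT lungs 4 fell and 1 rose, against 2.37% that fell and 3.56% that rose. With arrays brought to a common median these WT shares were 0.647% and 3.07%, and no member was called there. With quantile normalization the difference was below 0 for 40 of 43 members in each genotype. Its median over the subunits was -0.16 in WT and -0.20 in FP-KO lungs, and over the assembly factors -0.20 and -0.32, against -0.00 over all tested genes in both.

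Ndufaf4, an assembly factor of the ubiquinone-binding module of the matrix arm, had the largest fall in each genotype. In WT lungs it read 913.8, 1275.9, 970.3 and 958.9 on Day 7 and 607.4, 502.8, 515.4, 786.1 and 865.4 on Day 14, a log2 difference of -0.73 ± 0.21 (limma adjusted p = 0.0446). In FP-KO lungs it read 1091.0, 1105.6, 989.7 and 822.6 on Day 7 and 469.3, 440.6, 802.7 and 814.7 on Day 14, a difference of -0.77 ± 0.22 (adjusted p = 0.0186). The days did not overlap in either genotype, although the Day 14 mice of the second set lay close below the lowest Day 7 mice. The second probe set of this gene gave -0.01 in WT and 0.06 in FP-KO lungs, so the fall was seen by 1 of its 2 probe sets. On Day 0, Ndufaf4 read 588.1 to 911.5 in WT and 564.2 to 921.1 in FP-KO lungs, and its Day 7 differences from there, 0.54 and 0.60, did not pass the test.

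Ndufb6, a single-span subunit of the membrane arm, fell in both genotypes as well. WT lungs read 5062.3, 4302.8, 4715.0 and 5086.1 on Day 7 and 3093.6, 3199.6, 2822.8, 3904.1 and 4155.4 on Day 14 (-0.45 ± 0.12, limma adjusted p = 0.0273), and the normalized values of the days overlapped. FP-KO lungs read 4602.2, 5674.4, 4563.6 and 4085.5 on Day 7 and 2724.2, 2733.2, 3684.9 and 3706.5 on Day 14 (-0.49 ± 0.12, adjusted p = 0.00894). A second bright probe set gave -0.24 and -0.30. In WT lungs Ndufa12 (-0.31) and the methyltransferase Ndufaf7 (-0.29) also fell, with adjusted p-values of 0.0344 and 0.0414. In FP-KO lungs the other falls were Ndufb1 (-0.65), Ndufaf6 (-0.59), Ndufa8 (-0.41), Ndufaf1 (-0.35), Ndufb2 (-0.34), Ndufa10 (-0.34), Ndufa7 (-0.28), Ndufs4 (-0.27), Ndufa9 (-0.26) and the core subunit Ndufv2 (-0.25), with adjusted p-values between 0.012 and 0.0392. Both comparisons use the Day 7 mice that also enter the Day 7 against Day 0 comparisons.

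**Figure D3:**
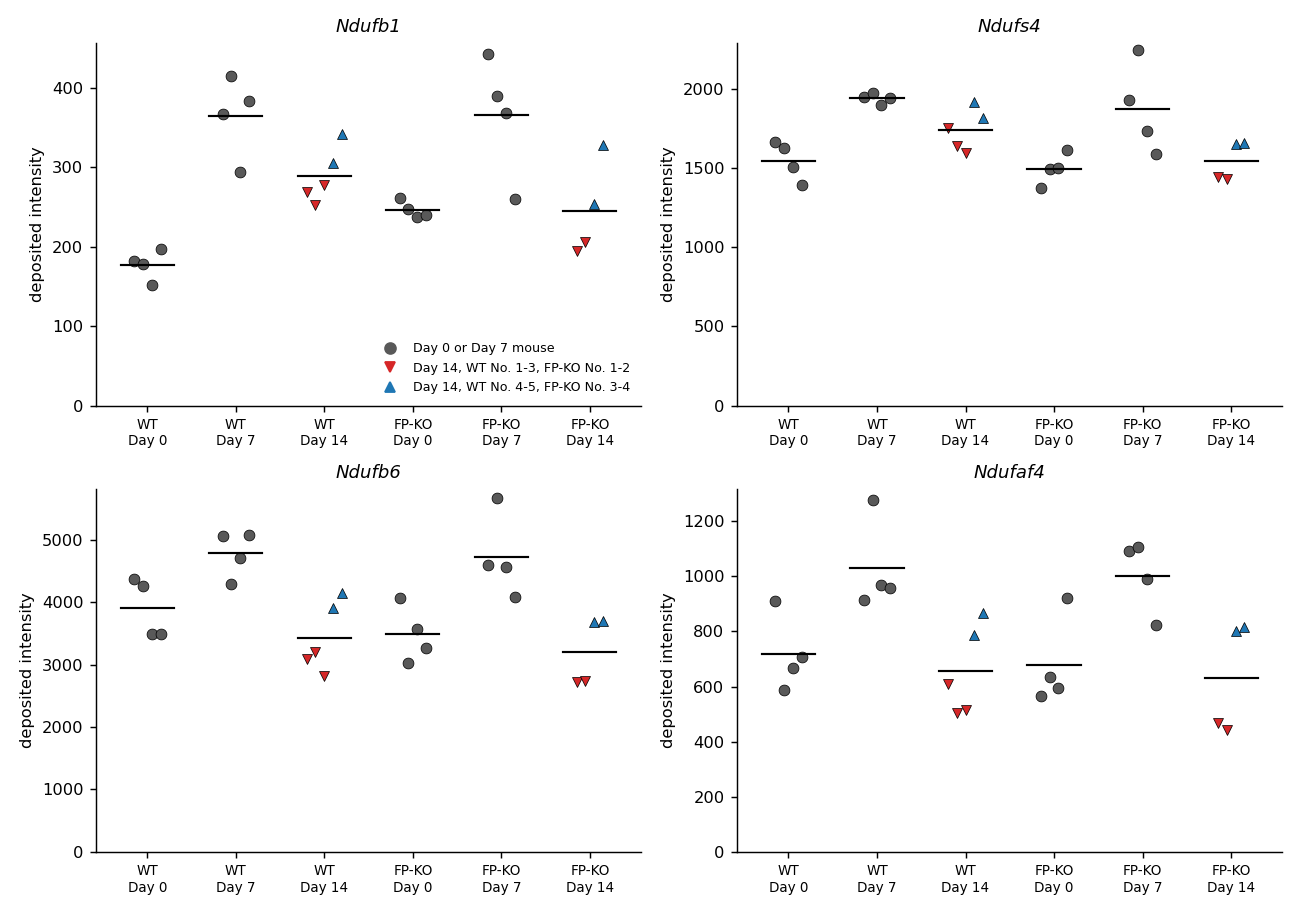
Deposited intensity of Ndufb1, Ndufs4, Ndufb6 and Ndufaf4 in each mouse by group, on linear axes that start at 0; points are single arrays, bars are group means, and the Day 14 arrays are drawn by set. Ndufb1 in WT lungs rises from a highest Day 0 value of 196.6 to a lowest Day 7 value of 294.3, and Ndufaf4 and Ndufb6 are lowest in the first Day 14 set (red).

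The fall from Day 7 to Day 14 was called with the first Day 14 set and not with the second. With the first set alone, 32 of 43 members were called lower in FP-KO lungs and 19 in WT lungs, against 18.5% and 12.1% of all genes, with medians over the subunits of -0.34 and -0.23. With the second set alone no member was called in either genotype, where 1.59% of all genes were lower in FP-KO and 0.0166% in WT lungs, and the medians were -0.07 and -0.06. Ndufb6 was at -0.69 in FP-KO and -0.60 in WT lungs with the first set, and at -0.29 and -0.23 with the second. Ndufaf4 was at -1.22 in FP-KO lungs with the first set, and at -0.32 in each genotype with the second. Without FP-KO No. 2 of Day 14, the array that lay among the Day 0 arrays on the first component, Ndufb6 was the 1 member still called lower in FP-KO lungs, against 4.85% of all genes. Without FP-KO No. 1 of Day 14 the count was 5, and without No. 1 or No. 2 of Day 7 it was 4. In WT lungs the count of members called in either direction was 0 without No. 1, No. 2 or No. 3 of Day 14 or without No. 1 or No. 4 of Day 7, 1 without No. 3 of Day 7 and 2 without No. 2 of Day 7. For the fits without a mouse other than FP-KO No. 2 of Day 14, the shares over all genes are not given.

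Set against each other, the Day 14 arrays of the first set read lower than those of the second for 39 of 43 members in WT and 39 of 43 in FP-KO lungs. Every array of the first set lay below every array of the second for 32 members in WT lungs (74.4%) and 36 in FP-KO lungs (83.7%), and 30 members did so in both. Over all tested genes the same was true of 24.2% in WT and 26.7% in FP-KO lungs, with 23.5% and 28.1% on the other side. The median difference, first set minus second, was -0.19 in WT and -0.28 in FP-KO lungs, against -0.00 and 0.00 over all tested genes. The sets were drawn from a component that uses these genes among all others, so this is a description and was not tested. Ndufaf4 showed the widest gap, -0.68 in WT and -0.91 in FP-KO lungs, followed in WT by Ndufa13, a subunit also known as GRIM-19, at -0.61 (-0.66 in FP-KO). All 8 accessory subunits of the matrix arm and all 18 tested of the membrane arm had a lower mean in the first set in each genotype. So did 4 of 6 core subunits in each genotype, the others being Ndufs3 and Ndufs8 at 0.04 and 0.02 in WT lungs and Ndufs1 and Ndufv1 at 0.18 and 0.03 in FP-KO lungs. Ndufa4 (0.09 and 0.05) and Ndufa4l2 (0.34 and 0.11), the pair outside complex I proper, had a higher mean in the first set in both genotypes. Their sets overlapped except for Ndufa4l2 in WT lungs. All 8 assembly factors had a lower mean in the first set, with medians of -0.19 in WT and -0.42 in FP-KO lungs.

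**Figure D4:**
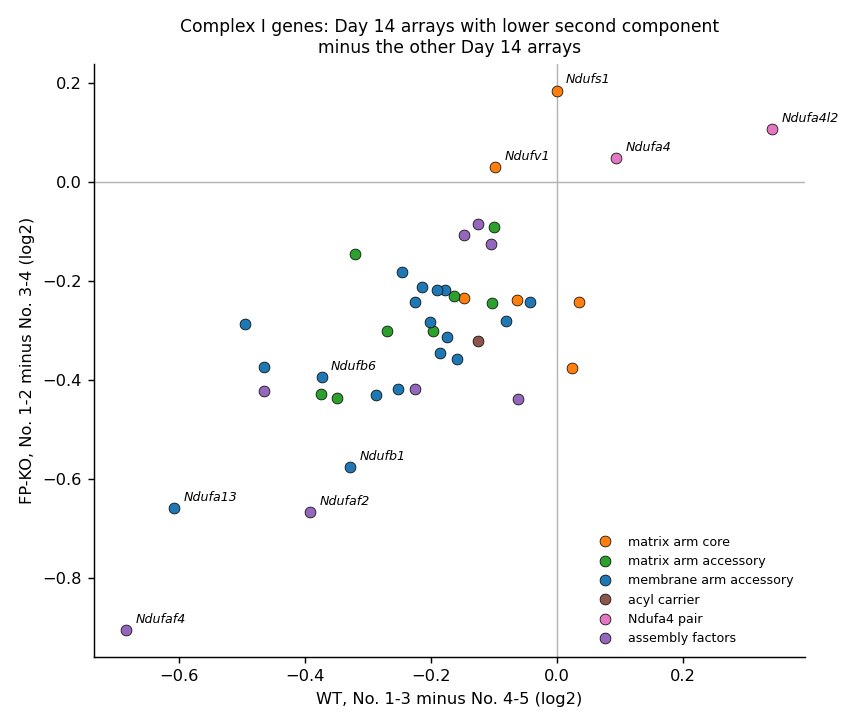
For each of the 43 tested genes, the log2 difference between the first and second Day 14 set in WT (horizontal) and in FP-KO lungs (vertical), coloured by structural class. Most genes lie below 0 on both axes, Ndufaf4 is farthest out at -0.68 and -0.91, and Ndufa4 and Ndufa4l2 are above 0 on both.

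Other mitochondrial genes shared the gap between the sets in part. The median was -0.22 in WT and -0.31 in FP-KO lungs for the 4 genes of complex II, -0.14 and -0.18 for the 15 of complex V, -0.16 and -0.18 for the 13 of complex IV, and -0.06 and -0.16 for the 9 of complex III. For the 14 genes of the tricarboxylic acid cycle it was -0.11 and -0.09. Of the 10 lists of cell type markers, 4 had medians of opposite sign in WT and FP-KO lungs: cardiac muscle (-0.25 and 0.55), macrophage (0.23 and -0.54), adipocyte (-0.17 and 0.34) and proliferation (0.13 and -0.14). The other 6 had the same sign in both. These were alveolar type 1 (0.09 and 0.09), alveolar type 2 (0.03 and 0.01), ciliated (0.19 and 0.18), club (0.05 and 0.29), endothelial (0.10 and 0.42) and lymphocyte genes (-0.30 and -0.05). In FP-KO lungs the first set is No. 1 and No. 2, and No. 2 lay among the Day 0 arrays on the first component. Relative to WT Day 0, the macrophage list had a lowest level of 0.12 and a median of 1.40 in FP-KO lungs on Day 14. There 10 of 11 macrophage genes had a lower mean in the first set, and 3 lay wholly below the second. The part of these markers in the complex I values was not tested.

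The core subunits, which carry the electron path, were called in 3 of 36 gene and comparison pairs (8.33%) over the 6 comparisons of days, against 30 of 210 (14.3%) for all subunits and 21.5% for all tested genes. Ndufv1, the flavin and NADH site, read 2225.1 to 3236.5 over all 25 lungs and was called in none of the 12 comparisons and interactions with limma, its differences from Day 0 lying between -0.19 and 0.05. Ndufs1, which holds several iron-sulfur clusters, read 1393.4 to 1775.7 and was called in none either. Ndufs8 read 3255.5 to 7720.6, its highest value being FP-KO No. 2 of Day 7 and its lowest FP-KO No. 2 of Day 14, and its differences of 0.33 (FP-KO Day 7 against Day 0) and -0.33 (Day 14 against Day 7) did not pass the test. Ndufs7, Ndufs3 and Ndufv2 were each called once, in the comparisons given above. The acyl carrier protein Ndufab1, which also serves mitochondrial fatty acid synthesis, was called in none, with differences between -0.20 and 0.22 in the 6 comparisons of days.

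Of the pair outside complex I proper, Ndufa4 was called in no comparison, at 0.18 and 0.19 on Day 7 against Day 0 in WT and FP-KO lungs. Ndufa4l2 read 561.8, 716.9, 632.8 and 385.6 in WT lungs on Day 7 and 989.5, 965.5, 924.4, 725.4 and 732.2 on Day 14. It was the 1 member that rose from Day 7 to Day 14 in WT lungs, by 0.58 ± 0.16 (limma adjusted p = 0.0363). The deposited intensities of the days did not overlap, whereas the normalized log2 values did. In FP-KO lungs it read 558.1 to 740.5 on Day 7 and 689.9 to 922.4 on Day 14, a difference of 0.24 that did not pass the test. The difference between those changes was -0.34 and was not called either.

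Over the 6 comparisons of days the factors gave 7 calls, 1 up and 6 down, among 48 gene and comparison pairs (14.6%), and the subunits gave 30, 10 up and 20 down, among 210 (14.3%). Over all tested genes 21.5% of such pairs were called. These comparisons share mice and so are not independent, and the difference between the classes was not tested. Ndufaf2 and Ndufaf3 were called in none of the 6. Ndufaf1, which joins the membrane arm intermediate, read 523.1 to 750.4 in FP-KO lungs on Day 7 and 474.1 to 540.9 on Day 14, and its fall was 0.35 ± 0.11 (limma adjusted p = 0.0316). Ndufaf6 read 223.3, 318.5, 188.9 and 282.8 on Day 7 and 145.6, 155.9, 198.4 and 201.1 on Day 14 in FP-KO lungs, a fall of 0.59 ± 0.18 (adjusted p = 0.0264) in which the days overlapped. Among 11 complex I assembly factors with other names, Nubpl, which delivers iron-sulfur clusters, rose in WT lungs by Day 7 (0.37 ± 0.13, adjusted p = 0.0261). Tmem70 rose (0.30) and then fell (-0.30) in FP-KO lungs, and Dmac1 fell there from Day 7 to Day 14 (-0.49), with adjusted p-values between 0.0167 and 0.0333. With the first Day 14 set the falls of Tmem70 and Dmac1 were -0.39 and -0.70 and were called. The differences were -0.21 and -0.28 with the second set and -0.26 and -0.34 without FP-KO No. 2 of Day 14, and none of these was called.

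With all arrays weighted equally, FP-KO and WT lungs did not differ in any complex I gene past the threshold on any day. With limma, 0 of 43 members were called on any of the 3 days, against 0.0166%, 0.0166% and 10.5% of all tested genes, and 1, 0 and 1 member had an unadjusted p under 0.05. On Day 14 the calls over all genes split into 4.89% higher and 5.64% lower in FP-KO lungs (1.80% and 4.56% with arrays brought to a common median). The share of all genes called on Day 14 was 9.51% with the first Day 14 set, 0.0166% with the second and 3.25% without FP-KO No. 2 of Day 14, and 0 members were called in each of these fits. A fit with array weights did call members on Day 14. It weighted the first Day 14 set more in WT lungs and the second more in FP-KO lungs. The count and the weights are given in the section on processing below. The largest difference was that of Ndufb1 on Day 0: the 4 FP-KO lungs read 237.5 to 261.8 and the 4 WT lungs 152.3 to 196.6, without overlap. Its log2 difference was 0.45 (95% interval 0.08 to 0.82), with an adjusted p of 1. On Day 7 Ndufb1 differed by 0.01 (-0.36 to 0.38) and on Day 14 by -0.28 (-0.64 to 0.07). Ndufa9 was lower in FP-KO lungs on Day 14 by a difference of -0.15 (-0.29 to -0.01, adjusted p = 0.145), the lowest WT mouse reading 3042.4 and the highest FP-KO mouse 3078.0, and the normalized values did not overlap.

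For most members the intervals were narrow. The margin on either side of the estimate had a median of 0.215, 0.215 and 0.204 on the log2 scale at the 3 times in order, and 41, 43 and 41 of the 43 intervals lay within a 1.5-fold difference in either direction. The widest bounds over all members were -0.56 and 0.82 on Day 0, -0.49 and 0.54 on Day 7, and -0.68 and 0.38 on Day 14. The median difference, FP-KO minus WT, was -0.07, 0.01 and -0.05 for the subunits and -0.07, 0.09 and -0.02 for the assembly factors on those days. Next after Ndufb1 by p on Day 0 came Ndufa9 and Ndufb5 (both -0.13). On Day 7 the smallest p-values were those of Ndufb10 (0.15), Ndufaf1 (0.13) and Ndufa4l2 (0.19), and on Day 14, after Ndufa9, those of Ndufs4 (-0.17) and Ndufa8 (-0.20).

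The difference between the genotypes in their change over time was also not called for any member with all arrays weighted equally. Alternatives that did call a member for Day 14 from Day 0 are given in the section on processing below. Of all genes 0% were called for Day 7 from Day 0, 3.12% for Day 14 from Day 0 and 0.00829% for Day 14 from Day 7, and 1, 2 and 0 members had an unadjusted p under 0.05. Ndufb1 came closest: its change from Day 0 to Day 14 was lower in FP-KO than in WT lungs by a log2 difference of -0.74 (95% interval -1.25 to -0.23, limma adjusted p = 0.092). Its levels on Day 14 were 253.0 to 342.5 in WT and 194.7 to 328.4 in FP-KO lungs, which overlapped, while the Day 0 levels given above did not. Ndufb10 differed by 0.34 (0.04 to 0.64) for Day 14 and by 0.31 (0.00 to 0.62) for Day 7, with adjusted p-values of 0.207 and 0.785. For Day 14 from Day 7 the smallest p-values belonged to Ndufaf6 (-0.41), Ndufaf7 (0.19) and Ndufa8 (-0.23).

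The rest of the respiratory chain was followed with the same fit. From Day 7 to Day 14 in FP-KO lungs, 9 of 15 complex V genes fell and 0 rose, among them Atp5e (-0.47), Atp5g1 (-0.47) and Atp5o (-0.44). Of all tested genes 12.0% fell and 10.7% rose. In the same comparison 3 of 9 complex III genes (Uqcr10, -0.54; Uqcrq, -0.52; Cyc1, -0.32), 3 of 13 complex IV genes (Cox5a, -0.45; Cox6b1, -0.43; Cox7a2, -0.38) and 1 of 4 complex II genes (Sdhb, -0.49) fell. With the first Day 14 set the counts that fell were 10 for complex V, 4 for complex III, 6 for complex IV and 3 for complex II, and with the second set they were 0 for each. Without FP-KO No. 2 of Day 14 they were 1, 1, 0 and 0 in the same order. The share of all genes that fell, given above for each of these fits, was also higher with the first set. It was lower with the second set and without this mouse. By Day 7 in FP-KO lungs 5 of 15 complex V genes rose, with Atp5o at 0.55, against 12.6% of all genes that rose. In WT lungs complex IV showed its largest differences in the muscle isoforms. On Day 14 against Day 0, Cox8b was at -2.95, Cox7a1 at -1.41 and Cox6a2 at -1.20. Cox8a, the broadly expressed counterpart of Cox8b, was at 0.27. The 3 muscle isoforms are markers of heart and skeletal muscle. The cardiac muscle list fell in the same lungs. There the summed intensity of 8 adipocyte genes was 5697.6 to 14615 on Day 0 and 2721.2 to 3893.9 on Day 14. The part of either list in the values of these isoforms was not tested. Each isoform was called in WT lungs with either Day 14 set alone. On Day 14 Cox8b and Cox7a1 were higher in FP-KO than in WT lungs, by 1.40 and 0.66 (limma adjusted p = 0.00633 and 0.0493). Cox6a2 (0.39) was not called. Cox8b was called with the first set (1.36) and without FP-KO No. 2 (1.37), and not with the second (1.42). Cox7a1 was called in none of these. Both genes also differed in change from Day 0 (2.20 and 1.18, adjusted p = 0.0159 and 0.0392). Neither was called with the second set, and only Cox8b without No. 2.

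Regulators of mitochondrial gene expression moved in several directions. In WT lungs Hif1a, the oxygen-sensing transcription factor, rose by 0.69 by Day 7 and 0.54 by Day 14, while Ppargc1a, a coactivator of mitochondrial biogenesis, fell by 0.45 and 0.43. Tfb2m, a factor of mitochondrial transcription, fell by 0.66 on Day 14 in WT lungs. Of 13 such regulators 1 rose and 5 fell in WT lungs on Day 14 against Day 0, and 0 rose and 1 fell (Ppargc1b, -0.72) in FP-KO lungs. Of all tested genes 19.1% rose and 19.5% fell in WT lungs, and 1.85% rose and 1.41% fell in FP-KO lungs. Hif1a and Ppargc1b were lower in FP-KO than in WT lungs on Day 14, by log2 differences of -0.40 (limma adjusted p = 0.00633) and -0.49 (adjusted p = 0.0286). With the first Day 14 set these were -0.43 and -0.65 and were called, and with the second -0.36 and -0.31 and were not. Without FP-KO No. 2 of Day 14, Hif1a was called (-0.33) and Ppargc1b was not (-0.47). Against Day 0 in WT lungs, Hif1a was called with either set alone and Ppargc1a (-0.37 and -0.53) with neither, and Tfb2m was called with the first (-0.90) and not the second (-0.30). Of the 13 regulators, 3 rose and 4 fell there with the first set, and 1 rose and 1 fell with the second. The shares of all genes called there, given above, were also lower with the second set than with the first. In FP-KO lungs Ppargc1b was at -0.86 with the first set and at -0.58, not called, with the second.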

How the data were processed

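Total RNA from 25 mouse lungs was labelled and hybridised to Affymetrix Mouse Genome 430 2.0 arrays, per the labels' protocols. The authors deposited 1 intensity per probe set and array on a linear scale (45101 probe sets, 0 to 51673.8). The mean of each array, without its highest and lowest 2% of values, is 500. No source used here names the software. Array medians ran from 112.3 to 151.5, and the number of arrays limits the precision.

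Probe sets were named from the platform annotation: 34945 had 1 gene symbol, 932 had several and were not used, and 64 were controls. Of the 34945, 34741 matched GRCm38.p6 RefSeq gene numbers. Intensities under 24.3 (the 20th percentile) were raised to it, taken to log2 and quantile normalized. Each gene kept its probe set of highest mean, and genes above the array median on at least 4 arrays were tested. Differences and p-values came from limma 3.58.1 in R 4.3.3 on 6 group means (9 comparisons and 3 interactions, two-sided, Benjamini-Hochberg adjustment over all 12062 genes, threshold 0.05), checked on simulated data. Fold changes of members come from these normalized values, and intensities are printed as deposited. The members and lists were chosen with earlier results of these data known, and so were the 2 Day 14 sets. Genes named were the core subunits, Ndufab1, Ndufa4, Ndufa4l2 and the Ndufaf genes, and per comparison the 5 largest rises and falls among called members or, with under 3 called, the 3 smallest p-values. All other called members are listed too. Of each other list up to 3 called genes were named. Ndufa13, Cox8a, the exceptions named between the Day 14 sets and the 4 members whose promoters are printed were chosen after their values were seen. The labels do not say that mouse numbers mark a shared source. Deviations from the group means of same-numbered WT and FP-KO mice had correlations between 0.119 and 0.345 (Day 0), between 0.141 and 0.221 (Day 7) and between -0.308 and 0.437 (Day 14). The fit used no replicate block. Alternatives covered scaling, floor, filter, probe sets, model, each mouse left out and each Day 14 set alone.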

Additional observations from a re-analysis of the deposited data

Results flagged for a closer look

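Of 258 gene and group combinations examined, 11 held 1 mouse far from the rest of its group, where chance alone gives about 1 in 20. On Day 0, Ndufa7 read 6449.8 in FP-KO No. 2 (the others 7319.4 to 7572.7) and Ndufab1 read 2257.4 in the same mouse (the others 2875.6 to 2927.8). Among the WT mice of Day 0, Ndufc1 read 4905.2 in No. 1 (the others 3904.4 to 4357.1). Ndufb10 at 3206.1 in No. 4 and Ndufv3 at 3778.8 in No. 3 stood apart only after normalization, since their deposited values lay close to or within those of the others. On Day 7, Ndufb11 read 9690.6 in WT No. 2 (the others 8413.9 to 8521.0). WT No. 3 held the highest Ndufb9 at 7193.0 (the others 6247.7 to 6557.2) and the highest Ndufs7 at 3091.5 (the others 2770.2 to 2858.0). FP-KO No. 1 held the lowest Ndufb9 at 6159.4 (the others 6870.9 to 7511.2). On Day 14, Ndufa8 read 2265.0 in FP-KO No. 2 (the others 3244.2 to 3503.2) and Ndufaf1 read 540.9 in FP-KO No. 3 (the others 474.1 to 504.1).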

How the results depend on the processing

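No called member changed sign under any alternative run, and 2 of the 37 calls in single comparisons held under every one of them (Ndufb1 in WT lungs on Day 7 and on Day 14 against Day 0). Counts of called members moved more. For WT Day 7 against Day 0 (3 called), a common median gave 1, the mean of all probe sets 5, limma's trended and robust fit 6 and array weights 9. For WT Day 14 against Day 0 (10), a common median gave 2, array weights 19, the first Day 14 set 17 and the second 2. For WT Day 14 against Day 7 (5), these gave 0, 18, 20 and 0, and testing all genes without a filter gave 3. For FP-KO Day 7 against Day 0 (7), array weights gave 11. For FP-KO Day 14 against Day 0 (0), the first set gave 12. For FP-KO Day 14 against Day 7 (12), a common median gave 7, array weights 4, the first set 32 and the second 0. For FP-KO against WT on Day 14 (0), array weights gave 3, and for the interaction of Day 14 from Day 0 (0), array weights and the first set each gave 1. On Day 14 the array weights were 1.83, 1.79 and 1.46 in WT No. 1 to 3, against 0.564 and 0.44 in No. 4 and 5. In FP-KO lungs they were 0.48 and 0.306 in No. 1 and 2, against 1.59 and 1.44 in No. 3 and 4. The weighted fit thus leaned on the first set in WT and on the second in FP-KO lungs. Its comparison of the genotypes on Day 14 is therefore partly one of the sets. Each Day 14 set alone also holds fewer arrays. The cause of these moves was not tested. With the mouse number as a replicate block, WT Day 7 against Day 0 gave 5 calls, and no other count moved by over 1.5 times. On Day 0 and Day 7 every same-number correlation was over 0.1, and on Day 14, 1 of 4 (No. 3, -0.308) was not. The block left 0 members called in the comparisons of the genotypes on each day. Except where given above for a Day 14 set or a common median, the shares over all genes in these alternative fits are not given. The counts therefore do not show a dependence particular to complex I genes.

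Leaving out each mouse in turn gave 2 to 6 called members for WT Day 7 against Day 0, 4 to 11 for WT Day 14 against Day 0 and 0 to 5 for WT Day 14 against Day 7. For FP-KO lungs the counts were 1 to 11 for Day 7 against Day 0, 0 to 1 for Day 14 against Day 0 and 1 to 18 for Day 14 against Day 7. They were 0 in every comparison of the genotypes and for the interactions of Day 7 from Day 0 and Day 14 from Day 7, and 0 to 1 for Day 14 from Day 0. WT Day 7 against Day 0 gave 6 without WT No. 3 of Day 7, and 1 call was made without FP-KO No. 3 of Day 14 (Day 14 against Day 0) and without FP-KO No. 4 of Day 14 (the interaction). These counts are given without the shares over all genes in the same fits. Other bright probe sets of called members gave 36 pairs of a probe set and a comparison, in which a probe set can recur. Of these pairs, 32 had the same sign. The exceptions were a probe set of Ndufs4 in both Day 7 comparisons, 1 of Ndufaf4 and 1 of Ndufb2 (0.35) in FP-KO Day 14 against Day 7. Some of the same sign were near 0, such as -0.01 for Ndufa12 (WT Day 14 against Day 0) and -0.01 for Ndufaf4 (WT Day 14 against Day 7). Precision is limited by 4 or 5 mice a group.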
